A study of Rattus norvegicus with 9 samples.

Results

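The genes described here are 44 endothelial and lymphatic genes, listed by symbol and read in the right ventricle of the rat. A gene was represented by the array feature that carried its symbol alone, and by the brightest such feature over all 9 arrays where there were several. A feature was found for 39 of the 44 genes, out of 14506 genes with a feature in the whole table. Ptprb, Mmrn2, Vwf, Stab1 and Ephb4 had none and are not analysed here. Only Cav2 and Klf4 had more than 1 feature.

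Male Sprague-Dawley (SD) rats underwent pulmonary artery banding (PAB), a constriction that loads the right ventricle with pressure, or a sham operation. Ventricles taken 4 weeks after banding were divided by the share of the tissue section that was fibrotic. Those above 6.5% formed the F+ group and those below it the F- group, and sham-operated rats (Sham) carried neither the band nor its load. Each group was hybridized to 3 Affymetrix Rat Gene 1.0 ST arrays. The sources used here give no age for these rats. The F- and F+ groups therefore had the same operation and differ by an outcome read in the tissue, not by an assigned treatment. The methods state that hybridizations were run in triplicate and their intensities averaged. No source tells whether the 3 arrays of a group stand for 3 animals, so the p-values below describe the spread among arrays only, and part of that spread may be technical. The whole frozen ventricle was used, in which fewer endothelial cells and less RNA per endothelial cell cannot be told apart.

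Endothelial cells line the inside of every blood and lymphatic vessel. In the heart they form a dense capillary bed around the muscle cells, which passes fatty acids, oxygen and water to the muscle. Under inflammatory signals they display adhesion molecules that slow and hold white blood cells, and Notch signaling between neighbouring cells sets arterial against venous fate. Lymphatic endothelium, which drains fluid and immune cells from the tissue, is guided by the transcription factor Prox1 and the growth factor receptor encoded by Flt4.

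The deposited values are signal intensities with medians of 33.4 to 33.9 on the 9 arrays and single values between 1 and 190.4. All differences below are differences of mean log2 values, tested with limma over all 29215 features and adjusted by the Benjamini-Hochberg method. The scale of the deposited values is not stated in the sources used here. The sizes hold on that scale only, and levels of different genes are not compared. Markers of heart muscle were present on every array, with Myl2, the ventricular myosin light chain, between 139.8 and 153.9. A few arrays stood apart. Sham array 2 had 115.1 for Sln and 85.8 for Bmp10, genes of atrial muscle, where no other array exceeded 53.8 and 18.9. Sham array 1 had the highest value of all arrays in 12 of the 39 genes (30.8%, against 15.5% of all features), among them Cldn5, Klf2, Klf4 and Dll4. F- array 2 had the lowest value in 10 of the 39 (25.6%, against 8.81% of all features). F+ array 1 had the highest value in 11 (28.2%, against 9.39% of all features). Sham array 2 and F- array 1 had the highest value in 0 of the 39. Their part in the results was not tested. Values without such an array are given for some results only, so a result printed without them may also move.

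Most of the 39 genes read higher in F+ than in F-. The difference was positive for 28 genes, against 48.2% of all features, and negative for 11, with a median of 0.059 on the log2 scale against -0.0023 for all features. None of the 39 passed the adjusted threshold of 0.05 in limma, where the smallest adjusted p was 0.402 for Vcam1. Among all features 1 passed (0.00342%). At an unadjusted p under 0.05, 15 of the 39 genes differed, against 7.41% of all features. Of these, F+ was higher for 14, against 3.65% of all features, and 1 was lower, against 3.76%. The arrays did not overlap in 15 genes, against 9.74% of all features. In 14 of these every F+ array lay above every F- array (4.46% of all features), and in Cav2 every F+ array lay below (5.28%). Without F- array 3 the count at an unadjusted p under 0.05 was 8, against 5.12% of all features. Without F+ array 1 it was 9, against 6.69%. On the scale of the deposited values, no difference of the 39 genes reached 1.5-fold in any comparison.

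**Figure D1:**
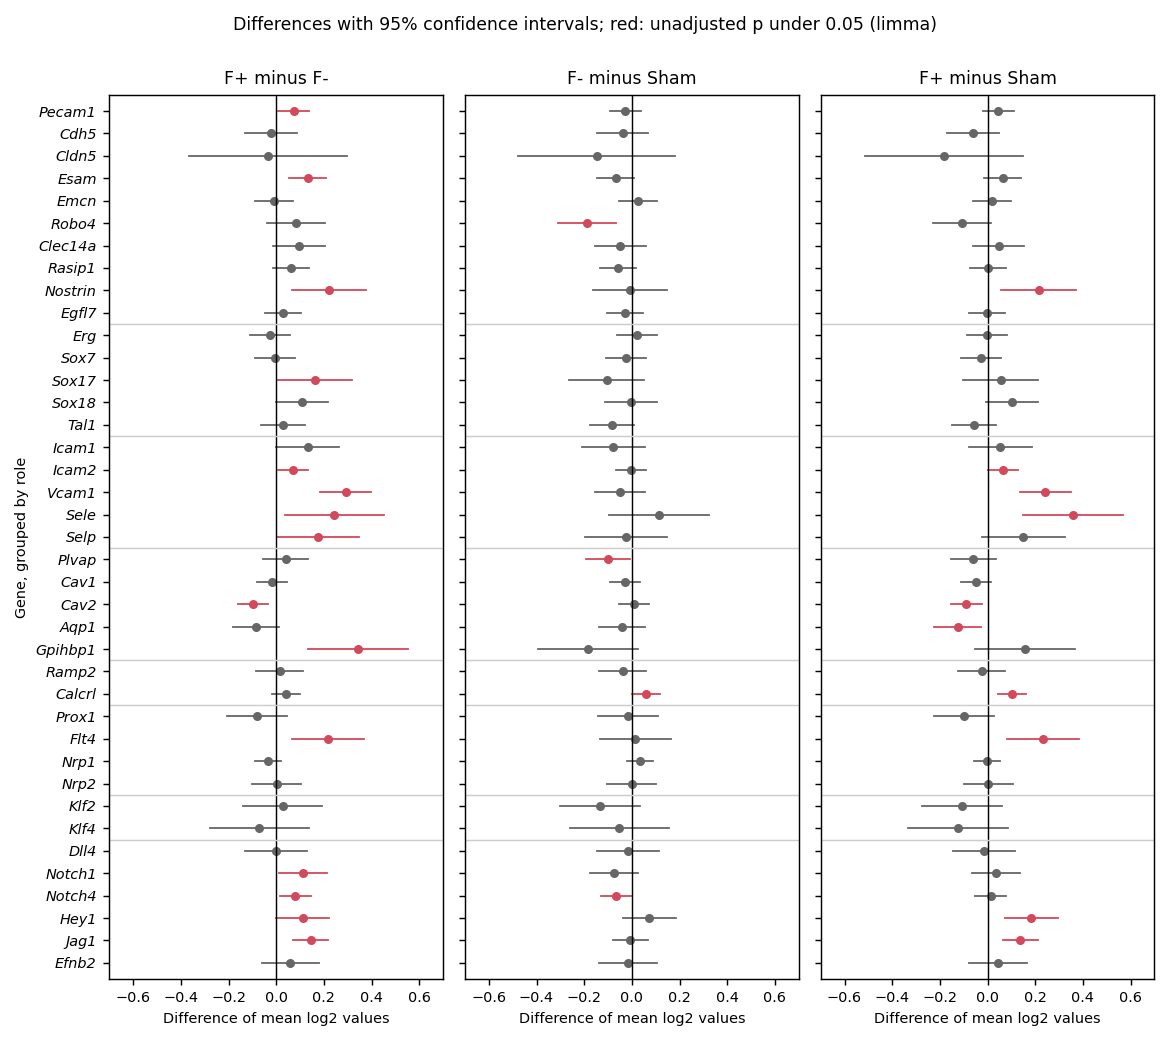
Differences of mean log2 deposited values (horizontal axis) of the 39 genes in each comparison, with points for the estimate, bars for its 95% confidence interval from limma and red for an unadjusted p under 0.05. In the F+ against F- comparison 28 of 39 points lie to the right of 0, and in the F- against Sham comparison 30 of 39 lie to its left.

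Against the sham-operated group, the F- group had lower values in 30 of the 39 genes and higher values in 9 (48.2% of all features were higher), with a median of -0.030. Only 4 had an unadjusted p under 0.05, which were Robo4, Plvap, Notch4 and Calcrl, against 6.03% of all features. Calcrl was the 1 with a higher value in the F- group (3.07% of all features), and the other 3 were lower (2.96% of all features). The arrays did not overlap in 7 genes, against 9.79% of all features, with F- higher in 2 (5.15%) and lower in 5 (4.64%). The limma test gave 0 genes past the adjusted threshold (0% of all features), with a smallest adjusted p of 0.743. The direction rested in part on Sham array 1: without it 24 genes were lower and 15 higher, and 1 had an unadjusted p under 0.05, against 4.13% of all features. The count was also 1 without F- array 3 (5.37% of all features), F+ array 1 (6.24%) or F+ array 2 (5.64%), and 7 without Sham array 2 (6.55%). After centring each array on its median, 26 were lower and 13 higher.

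The median difference from Sham was smaller for F+ than for F-, but not when Sham array 1 was left out. F+ was higher than Sham for 22 of the 39 genes, against 47.5% of all features, and lower for 17, with a median of 0.013. Without Sham array 2 the split was 19 higher and 20 lower, with a median of -0.0014. Without Sham array 1 it was 25 higher and 14 lower, with a median of 0.038, against -0.019 between F- and Sham. An unadjusted p under 0.05 was reached by 10 genes, against 7.4% of all features, and none passed the adjusted threshold (0% of all features, smallest adjusted p 0.564 in limma, for Vcam1). Of the 10, F+ was higher for 8 (3.5% of all features) and lower for 2, Cav2 and Aqp1 (3.9%). The arrays did not overlap in 13 genes, against 12.2% of all features, with F+ higher in 10 (5.69%) and lower in 3 (6.56%). These 3 comparisons share their arrays in pairs, so a high F- value lowers the first difference and raises the second, and each set of values is given on its own.

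**Figure D2:**
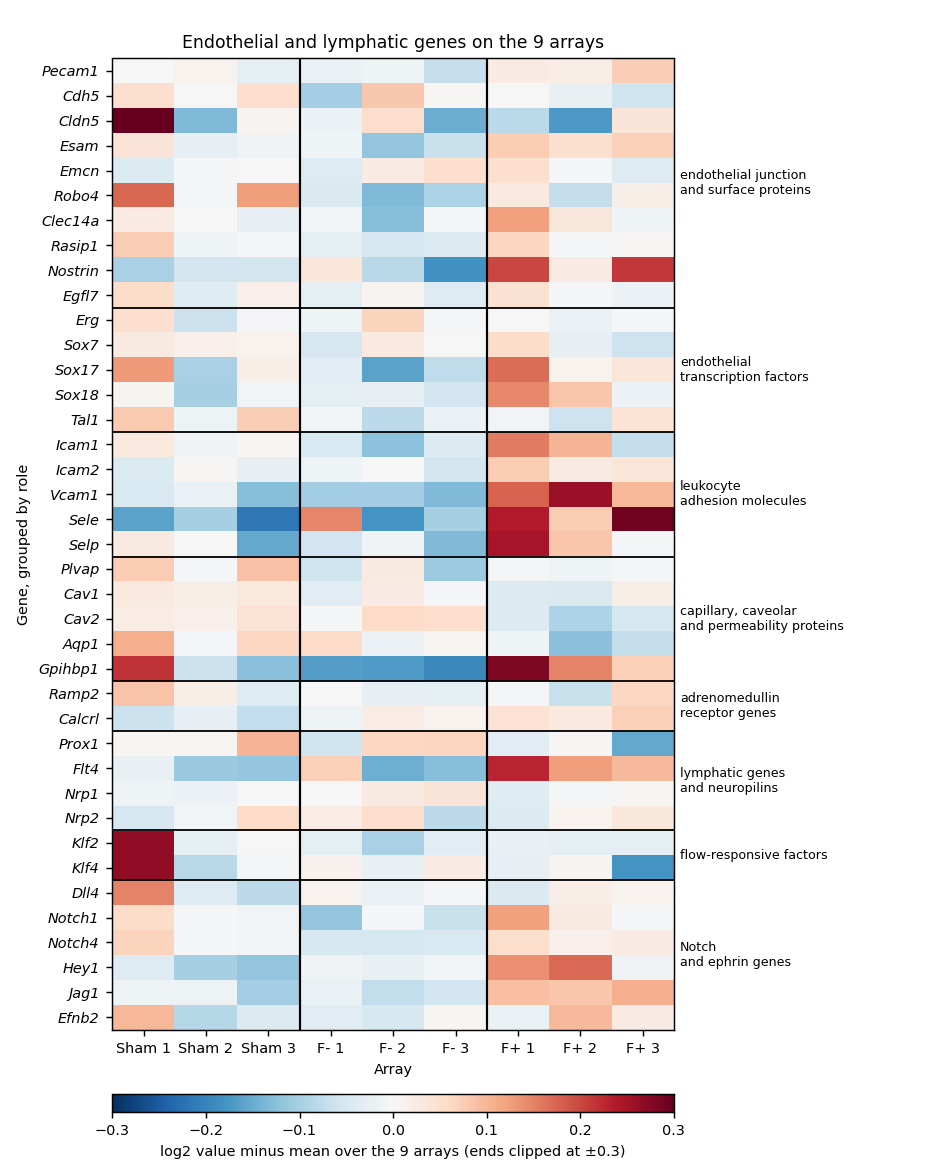
Deviation of each of the 39 genes from its mean log2 value over the 9 arrays, on the log2 scale, with genes in rows by role and arrays in columns by group. The median deviation lies between -0.041 and -0.019 in F- and between 0.0096 and 0.046 in F+, and Sham array 1 is high for Cldn5, Klf2 and Klf4.

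The 5 leukocyte adhesion molecules were higher in the F+ group than in either other group, and Vcam1 had the smallest p-value of all 39 genes in both comparisons. The summed value of the 5 was between 201.6 and 216.4 in F+, between 181.4 and 190.4 in F- and between 181.2 and 189.6 in Sham. Against the F- group, 5 of 5 were higher and 4 had an unadjusted p under 0.05. Against the sham-operated group, 5 of 5 were higher and 3 had such a p. The F- group was lower than the sham-operated group in 4 of 5, with an unadjusted p under 0.05 in 0. Over all features, 7.41%, 7.4% and 6.03% had such a p in these comparisons, in this order, and 48.2%, 47.5% and 48.2% were higher.

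Vcam1 encodes an adhesion molecule that holds monocytes and lymphocytes through their integrins and that cells other than endothelium can also make. Its values were 37.9, 38.6 and 35.8 in Sham, 36.4, 36.4 and 35.7 in F-, and 44.2, 46.8 and 41.9 in F+. All F+ arrays lay above all others, and the sham and F- arrays overlapped. The group means were 44.3 ± 2.45 (SD, n = 3) for F+, 36.2 ± 0.40 (SD, n = 3) for F- and 37.4 ± 1.46 (SD, n = 3) for Sham. The F+ group was 1.22-fold higher than the F- group, a log2 difference of 0.29 with a standard error (SE) of 0.046 and a 95% confidence interval of 0.19 to 0.40 (unadjusted p = 0.00025, adjusted p = 0.402, limma). Against the sham-operated group it was 1.18-fold higher (log2 0.24, SE 0.046, unadjusted p = 0.00081, adjusted p = 0.564, limma). Between the F- and sham-operated groups the log2 difference was -0.049 with an SE of 0.046 (unadjusted p = 0.316, adjusted p = 0.790, limma). An exact permutation test of 3 arrays against 3 cannot give a two-sided p below 0.1.

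Sele encodes E-selectin, which activated endothelium shows to rolling leukocytes. It read 29.9, 31.2 and 28.8 in Sham, 37.0, 29.5 and 31.2 in F- and 39.4, 35.2 and 40.8 in F+. The F+ arrays were all above the sham arrays, while F- array 1 lay within the F+ range. The log2 difference of F+ was 0.36 from Sham (SE 0.090, unadjusted p = 0.0043, adjusted p = 0.60, limma) and 0.24 from F- (SE 0.090, unadjusted p = 0.027, adjusted p = 0.661). That of F- from Sham was 0.11 (SE 0.090, unadjusted p = 0.242, adjusted p = 0.767, limma). Without F- array 1, F- differed from Sham by 0.019 and F+ from F- by 0.34. Without F- array 2, F+ differed from F- by 0.18 (unadjusted p = 0.094, limma).

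Selp encodes P-selectin, which is stored in granules of endothelial cells and platelets. Its values were 27.9, 27.4 and 24.6 in Sham, 26.3, 27.2 and 25.0 in F- and 32.5, 29.0 and 27.3 in F+. The F+ arrays lay just above the F- arrays, with 27.3 against 27.2 for the closest pair, and overlapped the sham arrays. The log2 difference was 0.17 from F- (SE 0.074, unadjusted p = 0.047, adjusted p = 0.672, limma) and 0.15 from Sham (SE 0.074, unadjusted p = 0.078, adjusted p = 0.690), which were 0.11 and 0.081 without F+ array 1. Between F- and Sham it was -0.024 (SE 0.074, unadjusted p = 0.753, adjusted p = 0.943, limma).

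Icam1 and Icam2 encode ligands of leukocyte integrins, and Icam2 is made by resting endothelium. Icam1 was at 45.9, 44.7 and 45.2 in Sham, 43.6, 41.3 and 43.7 in F- and 50.1, 48.3 and 42.8 in F+. Only F+ arrays 1 and 2 stood above the others, and F+ array 3 lay among the F- arrays. The F+ group differed from F- by 0.13 (SE 0.057, unadjusted p = 0.050, adjusted p = 0.672, limma) and from Sham by 0.053 (SE 0.057, unadjusted p = 0.380, adjusted p = 0.834), which were 0.085 and 0.0065 without F+ array 1. All F- arrays were below all sham arrays (log2 -0.079, SE 0.057, unadjusted p = 0.205, adjusted p = 0.758, limma). Icam2 varied little, with 46.3 to 47.7 in Sham, 45.8 to 47.6 in F- and 48.4 to 50.2 in F+. Its F+ arrays lay above all others, by 0.069 over F- (unadjusted p = 0.036) and 0.066 over Sham (unadjusted p = 0.043).

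The stretch of 250 bases before the start of these genes is shown because Vcam1 had the smallest p-value of the 39 genes, and Vcam1, Sele and Icam1 are textbook targets of the inflammatory transcription factor NF-κB. The sequences are those of RefSeq on the rat assembly GRCr8, in which 3 of the 5 genes had a window, and each is given 5′ to 3′ along the gene's own strand. Capitals mark an exact match to the 10-base NF-κB consensus GGGRNNYYCC, searched on both strands (R is A or G, Y is C or T, N is any base). Stretches that differ from it in 1 base, such as gggtttcccc in Vcam1 and tggaaattcc in Icam1, are not marked or counted. Vcam1 is at chr2:206742784-206743033 on the minus strand, Sele at chr13:78936264-78936513 on the plus strand and Icam1 at chr8:27829595-27829844 on the plus strand.
Vcam1: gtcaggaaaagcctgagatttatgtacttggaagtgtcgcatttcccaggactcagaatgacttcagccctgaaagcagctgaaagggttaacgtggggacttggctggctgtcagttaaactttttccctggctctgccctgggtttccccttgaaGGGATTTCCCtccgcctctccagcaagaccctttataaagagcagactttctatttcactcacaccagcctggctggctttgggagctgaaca
Sele: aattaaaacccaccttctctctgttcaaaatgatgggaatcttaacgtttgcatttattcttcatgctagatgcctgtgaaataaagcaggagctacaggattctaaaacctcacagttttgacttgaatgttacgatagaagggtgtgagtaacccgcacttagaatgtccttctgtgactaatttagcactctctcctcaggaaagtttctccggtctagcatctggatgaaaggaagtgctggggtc
Icam1: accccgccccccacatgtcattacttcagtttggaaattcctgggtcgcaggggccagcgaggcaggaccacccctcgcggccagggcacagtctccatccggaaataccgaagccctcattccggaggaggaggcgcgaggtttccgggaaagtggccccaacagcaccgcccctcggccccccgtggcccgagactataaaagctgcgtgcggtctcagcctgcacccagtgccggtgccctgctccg
Vcam1 held 1 match, 93 to 84 bases before the start and readable on both strands. No match in the other windows says only that these letters are absent from them. Over all genes, 2117 of 33469 windows (6.33%) held a match. Of the 26 genes described here that had a window, 2 held it, Vcam1 and Notch4.

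**Figure D3:**
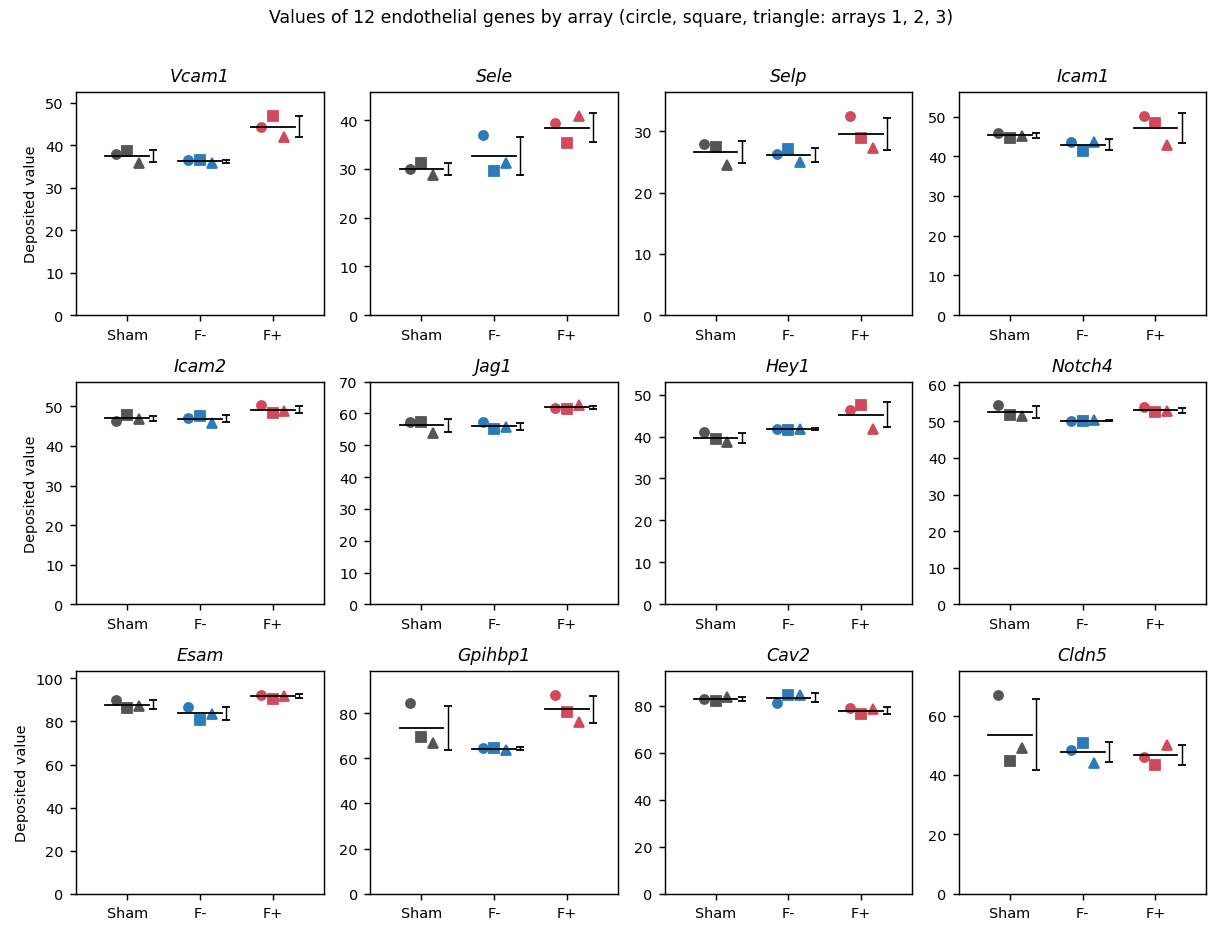
Deposited values of 12 of the genes on each array of the Sham, F- and F+ groups, with a line for the group mean and a bar for the SD of 3 arrays. All F+ arrays lie above the F- arrays for Vcam1 (41.9 to 46.8 against 35.7 to 36.4), Jag1, Esam and Gpihbp1, and below them for Cav2.

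The 6 Notch and ephrin genes were all higher in F+ than in F- (48.2% of all features), with a median log2 difference of 0.096. Of them 4 had an unadjusted p under 0.05, against 7.41% of all features. The F- group was lower than Sham in 5 of 6 (48.2% of all features were higher), and 1 of them had such a p (6.03%). That count rested on Sham array 1. Without it, Notch1 (-0.056) and Notch4 (-0.043) stayed lower, and Dll4 (0.053), Efnb2 (0.038) and Jag1 (0.0082) became higher. The F+ group was higher than Sham in 5 of 6 (47.5% of all features), with such a p in 2 (7.4%). Jag1, a Notch ligand of arteries and smooth muscle, led this group. It read 57.4, 57.4 and 54.0 in Sham, 57.2, 55.1 and 55.7 in F- and 61.7, 61.4 and 62.5 in F+. The F+ arrays lay apart from the rest with an SD of 0.57, while the sham and F- arrays overlapped. The difference was 0.14 from F- (SE 0.032, 95% confidence interval 0.071 to 0.22, unadjusted p = 0.0020, adjusted p = 0.492, limma) and 0.14 from Sham (SE 0.032, unadjusted p = 0.0027, adjusted p = 0.60).

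Hey1 encodes a repressor that Notch signaling switches on. It read 41.0, 39.3 and 38.8 in Sham, 41.8, 41.5 and 41.9 in F- and 46.3, 47.4 and 41.8 in F+. The lowest F+ array was at the level of the F- arrays, and both banded groups lay above Sham without overlap. F+ differed from Sham by 0.18 (SE 0.048, unadjusted p = 0.0052, adjusted p = 0.60, limma) and from F- by 0.11 (unadjusted p = 0.049, adjusted p = 0.672).

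Notch4, a receptor found mainly on endothelium, had a different order of groups. Its values were 54.3, 51.7 and 51.5 in Sham, 50.1, 50.0 and 50.2 in F- and 53.8, 52.4 and 52.7 in F+. The F- arrays were the lowest and lay below both other groups. The F+ group exceeded F- by 0.080 (SE 0.028, unadjusted p = 0.021, adjusted p = 0.639, limma), and F- was below Sham by a difference of -0.067 (SE 0.028, unadjusted p = 0.043, adjusted p = 0.743), which was -0.043 without Sham array 1.

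Notch1, the receptor shared by many cell types, was between 59.1 and 63.8 in F- and between 63.9 and 69.7 in F+ (difference 0.11, unadjusted p = 0.034). Without F+ array 1 the difference was 0.075 (unadjusted p = 0.112, limma). Efnb2, the arterial ephrin ligand, differed by 0.059 (unadjusted p = 0.290), and its groups overlapped. Dll4, the Notch ligand of arterial and sprouting endothelium, differed by 0.00047, with 69.9 to 71.5 in F- and 68.8 to 71.9 in F+. Among 14 further Notch pathway genes, 9 were higher in F+ than in F- (48.2% of all features). An unadjusted p under 0.05 was reached by 3, all higher (3.65% of all features). These were Lfng (0.18), which modifies Notch receptors, and the receptors Notch2 (0.12) and Notch3 (0.15), the last a gene of smooth muscle and pericytes. In the F- against Sham comparison 4 of 14 were higher (48.2% of all features) and 10 lower. Such a p was reached by 2 (6.03% of all features), Notch3 (-0.14) and Heyl (-0.092). In the F+ against Sham comparison 7 were higher (47.5% of all features) and 7 lower. Lfng (0.20) alone had such a p there, against 7.4% of all features.

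The 10 junction and surface proteins that mark endothelial cells had a median difference of 0.068 between F+ and F-. In F+ 7 of 10 were higher (48.2% of all features), and 3 had an unadjusted p under 0.05 (7.41%), Esam, Nostrin and Pecam1. Pecam1, the platelet and endothelial adhesion molecule of cell borders, was at 81.8, 82.4 and 80.3 in Sham, 80.8, 81.1 and 78.0 in F- and 83.3, 83.0 and 86.1 in F+. The F+ arrays were above all others by a small step. The log2 difference was 0.073 from F- (SE 0.028, unadjusted p = 0.030, adjusted p = 0.668, limma), 0.046 from Sham (SE 0.028, unadjusted p = 0.138, adjusted p = 0.725) and -0.028 for F- from Sham (unadjusted p = 0.350, adjusted p = 0.802).

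Cdh5, the cadherin of endothelial junctions, had no such order, with 79.6, 76.8 and 79.6 in Sham, 71.6, 81.3 and 77.1 in F- and 77.0, 75.7 and 73.7 in F+. The groups overlapped throughout. The difference was -0.021 for F+ from F- (SE 0.047, unadjusted p = 0.665, adjusted p = 0.926, limma), -0.060 for F+ from Sham (unadjusted p = 0.236, adjusted p = 0.771) and -0.039 for F- from Sham (unadjusted p = 0.430, adjusted p = 0.838). The first of these was 0.022 without F- array 2, and the last was 0.0094 without F- array 1.

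Esam, an immunoglobulin-type adhesion molecule of endothelial tight junctions, read 90.0, 86.2 and 87.0 in Sham, 86.8, 80.7 and 83.6 in F- and 92.4, 90.6 and 92.0 in F+. The F+ arrays lay above the rest. F+ differed from F- by 0.13 (SE 0.033, unadjusted p = 0.0043, adjusted p = 0.567, limma) and from Sham by 0.063 (unadjusted p = 0.092). Nostrin encodes an adaptor that binds endothelial nitric oxide synthase. It read 29.7, 30.6 and 30.6 in Sham, 32.6, 30.0 and 28.0 in F- and 36.5, 32.3 and 36.8 in F+. F- array 1 overlapped F+ array 2, and no sham array reached the F+ range. F+ differed from F- by 0.22 (SE 0.067, unadjusted p = 0.011, adjusted p = 0.623, limma) and from Sham by 0.21 (SE 0.067, unadjusted p = 0.013, adjusted p = 0.616).

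Robo4, a guidance receptor of stable endothelium, was the gene with the smallest p-value between F- and Sham. Its values were 53.1, 47.0 and 51.4 in Sham, 45.7, 43.0 and 44.1 in F- and 48.1, 44.8 and 47.7 in F+. The F- arrays were below all sham arrays, and the F+ arrays overlapped both. F- differed from Sham by -0.19 (SE 0.052, unadjusted p = 0.0071, adjusted p = 0.743, limma), and by -0.15 without Sham array 1. Cldn5, the claudin of tight junctions, was at 67.0 on Sham array 1 and between 43.4 and 50.7 on the other 8 arrays. F- differed from Sham by -0.15 for this gene, and by 0.024 without that array. Emcn, a surface mucin of capillaries and veins, and Egfl7, which endothelium secretes, differed by at most 0.030 in size in any comparison. Clec14a, a lectin of endothelial cells, overlapped between F- and F+ (difference 0.095, unadjusted p = 0.077). Rasip1, needed to open vessel lumens, was between 49.7 and 50.4 in F- and lay below both other groups (51.0 to 54.2 in Sham and 51.3 to 53.8 in F+).

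Among the transcription factors of endothelium, the SoxF family was split. Sox17, an arterial factor, was at 58.2, 53.2 and 56.4 in F- and 66.8, 59.9 and 61.0 in F+, without overlap (difference 0.16, unadjusted p = 0.045). Its sham arrays, at 65.0, 55.6 and 60.2, overlapped both. Sox18, which switches on Prox1 in the embryo, was at 60.5 to 61.9 in F- and 62.2 to 69.6 in F+ (difference 0.11, unadjusted p = 0.051). Without F+ array 1 the differences were 0.11 for Sox17 (unadjusted p = 0.149, limma) and 0.070 for Sox18. Sox7, the remaining member, had overlapping ranges, 43.0 to 45.5 against 42.7 to 46.3. Erg, an ETS factor that maintains endothelial identity, differed by at most 0.025 in size in any comparison, and Tal1, a factor shared with blood cells, was at 24.0 to 26.8 on all 9 arrays.

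The flow-responsive factors Klf2 and Klf4, which laminar flow induces in endothelium, were set apart by 1 array. Klf2 read 72.6, 59.2 and 60.4 in Sham, 59.2, 56.4 and 59.0 in F- and 59.4, 59.2 and 59.2 in F+. Klf4 read 73.0, 57.3 and 60.5 in Sham, 61.3, 59.8 and 61.8 in F- and 59.7, 61.1 and 53.6 in F+. Apart from Sham array 1, the groups overlapped for both genes. Klf2 differed by -0.13 between F- and Sham (SE 0.072, unadjusted p = 0.104, adjusted p = 0.743, limma), which was -0.039 without Sham array 1. It differed by -0.11 between F+ and Sham (unadjusted p = 0.180, adjusted p = 0.748), which was -0.013 without Sham array 1, and by 0.027 between F+ and F- (unadjusted p = 0.722, adjusted p = 0.945). Klf4 differed by -0.053 between F- and Sham (SE 0.090, unadjusted p = 0.570, adjusted p = 0.889, limma), and without Sham array 1 the difference was 0.050. It differed by -0.12 between F+ and Sham (unadjusted p = 0.205, adjusted p = 0.759), which became -0.021 when Sham array 1 was left out and -0.067 when F+ array 3 was, and by -0.071 between F+ and F- (unadjusted p = 0.453, adjusted p = 0.863), which was -0.013 without F+ array 3. Its other feature gave 0.00046 there.

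The proteins of capillaries and caveolae went in both directions. Gpihbp1, which carries lipoprotein lipase to the capillary surface, had the largest difference of the 39 genes between F+ and F-. Its values were 84.5, 69.5 and 66.6 in Sham, 64.8, 64.6 and 63.6 in F- and 88.2, 80.6 and 76.3 in F+. The F- arrays were the lowest of the 9, and Sham array 1 lay within the F+ range. F+ was 1.27-fold higher than F- (log2 0.34, SE 0.090, 95% confidence interval 0.13 to 0.55, unadjusted p = 0.0056, adjusted p = 0.594, limma). F+ against Sham gave 0.16 (unadjusted p = 0.120) and F- against Sham -0.19 (unadjusted p = 0.075). Without Sham array 1 these were 0.26 and -0.081, and F+ against Sham gave 0.090 when Sham array 3 was left out and 0.10 when F+ array 1 was.

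Cav2, a partner of Cav1 in the membrane pits called caveolae, was the 1 gene with lower values in F+ than in F- at an unadjusted p under 0.05. It read 82.8, 82.3 and 83.9 in Sham, 81.2, 84.8 and 84.5 in F- and 79.2, 76.4 and 78.6 in F+. The F+ arrays lay below all others. The difference was -0.097 from F- (SE 0.028, unadjusted p = 0.0084, adjusted p = 0.601, limma) and -0.089 from Sham (SE 0.028, unadjusted p = 0.013, adjusted p = 0.616). Its 2 features held identical values. Cav1, the main caveolar protein, was at 129.4 to 136.2 on all arrays and overlapped between groups. Aqp1, a water channel of capillaries and of red cells, was at 113.9, 105.4 and 110.2 in Sham and 104.7, 96.8 and 100.5 in F+, without overlap (difference -0.13, SE 0.042, unadjusted p = 0.017, adjusted p = 0.623, limma). Its F- arrays overlapped both groups (F+ minus F- -0.085, SE 0.042, unadjusted p = 0.078, adjusted p = 0.683, limma). Plvap, which forms the diaphragms of caveolae and fenestrae, was at 33.4, 31.6 and 33.7 in Sham, 30.4, 32.3 and 29.4 in F- and 31.6, 31.4 and 31.6 in F+. F- array 2 lay within the sham range (F- minus Sham -0.10, SE 0.041, unadjusted p = 0.039, adjusted p = 0.743, limma). Without Sham array 1 this difference was -0.089 (unadjusted p = 0.103, limma).

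Calcrl and Ramp2 together make a receptor of adrenomedullin, a peptide that widens vessels and stabilizes the endothelial barrier. Calcrl was at 85.0, 87.4 and 84.5 in Sham, 87.9, 90.3 and 89.6 in F- and 91.6, 90.7 and 93.4 in F+. It was the 1 gene of the 39 whose groups stood in the order Sham, F-, F+ with no overlap between neighbours. The difference was 0.060 for F- from Sham (SE 0.026, unadjusted p = 0.048, adjusted p = 0.743, limma), 0.10 for F+ from Sham (SE 0.026, unadjusted p = 0.0043, adjusted p = 0.60) and 0.042 for F+ from F- (unadjusted p = 0.142, adjusted p = 0.730). The first of these was 0.055 without Sham array 1 (unadjusted p = 0.107, limma). Ramp2 was at 71.9 to 79.9 on all arrays, and its groups overlapped.

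The lymphatic genes did not go together. Flt4, the receptor of the lymphatic growth factors VEGF-C and VEGF-D, was at 39.6, 37.2 and 37.1 in Sham, 42.2, 36.3 and 36.8 in F- and 47.1, 43.8 and 43.0 in F+. All F+ arrays were above all others, with F- array 1 the nearest. F+ differed from F- by 0.22 (SE 0.065, unadjusted p = 0.010, adjusted p = 0.618, limma) and from Sham by 0.23 (SE 0.065, unadjusted p = 0.0074, adjusted p = 0.609). F- differed from Sham by 0.015 (unadjusted p = 0.824, adjusted p = 0.965), which was -0.054 without F- array 1 and -0.0014 without Sham array 3.

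Prox1, which heart muscle cells also make, was at 66.6, 66.6 and 71.2 in Sham, 63.6, 69.2 and 69.3 in F- and 64.9, 66.5 and 59.6 in F+. The F+ arrays lay just below the sham arrays, with 66.5 against 66.6 for the closest pair, and overlapped the F- arrays. F+ differed by -0.082 from F- (SE 0.055, unadjusted p = 0.173, adjusted p = 0.745, limma) and by -0.099 from Sham (unadjusted p = 0.109, adjusted p = 0.709). Without F+ array 3 these differences were -0.035 and -0.052. F- against Sham gave -0.017 (unadjusted p = 0.767, adjusted p = 0.946). Nrp1 and Nrp2, co-receptors of semaphorins and VEGF, differed by at most 0.033 in size in any comparison, and Nrp2 was at 69.4 to 76.2 on all arrays.

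Of 16 further lymphatic gene symbols, listed by role with earlier results of these data known, 10 had a feature. All 10 of them were higher in F+ than in F- (48.2% of all features), with a median of 0.14. An unadjusted p under 0.05 was reached by 3, against 7.41% of all features. Lyve1, the hyaluronan receptor of lymphatic vessels and of some tissue macrophages, was at 69.3, 69.5 and 73.4 in Sham, 74.7, 62.5 and 69.7 in F- and 81.2, 87.3 and 85.4 in F+. Reln, which lymphatic endothelium secretes, was at 35.1, 34.4 and 29.9 in Sham, 35.7, 28.6 and 30.1 in F- and 45.0, 42.7 and 40.7 in F+. In both genes all F+ arrays lay above all others. F+ against F- gave 0.30 for Lyve1 (SE 0.064, unadjusted p = 0.0018, adjusted p = 0.488, limma) and 0.45 for Reln (SE 0.094, unadjusted p = 0.0015, adjusted p = 0.481, limma). Ccl21, the chemokine that draws dendritic cells into lymphatics, differed by 0.29 (SE 0.096, unadjusted p = 0.018). Vegfd, a ligand of the Flt4 receptor, was at 66.4, 37.3 and 40.2 in F- and 53.8, 75.2 and 72.7 in F+, which overlapped (difference 0.52, SE 0.23, unadjusted p = 0.051). Against Sham, all 10 were again higher in F+ (median 0.15), and Lyve1 (0.26), Reln (0.37) and Sema3f (0.089) had an unadjusted p under 0.05. Over all features 47.5% were higher in F+ than in Sham and 7.4% had such a p. Between F- and Sham 4 of the 10 were higher (48.2% of all features), 6 lower, and 0 had such a p (6.03%).

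**Figure D4:**
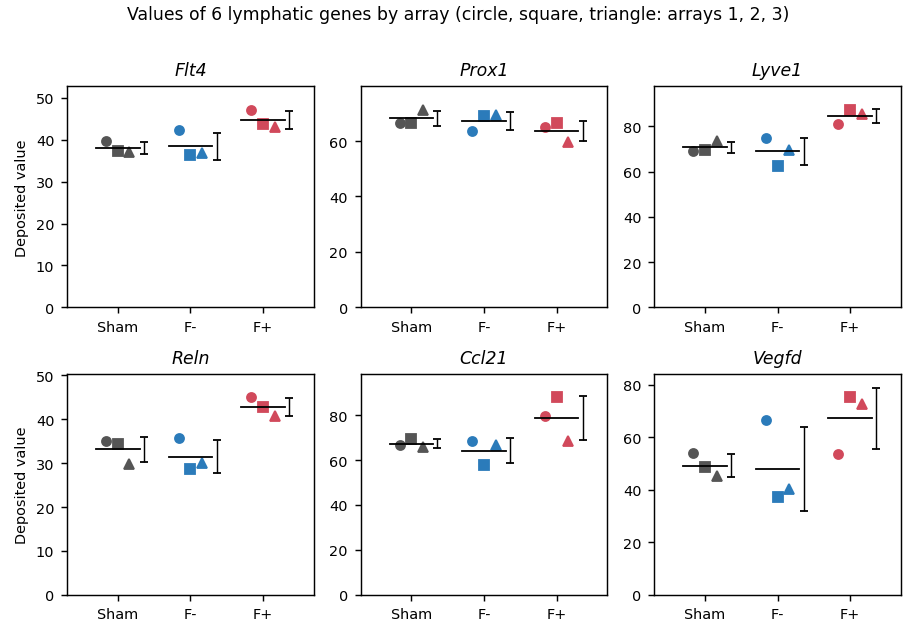
Deposited values of 6 lymphatic genes on each array of the Sham, F- and F+ groups, with a line for the group mean and a bar for the SD of 3 arrays. All F+ arrays lie above all others for Flt4, Lyve1 and Reln, whereas Prox1 in F+ (59.6 to 66.5) overlaps the F- arrays (63.6 to 69.3), and F- array 1 is high for Vegfd (66.4).

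A separate list of 44 other endothelial genes, of which 39 had a feature, had nearly the same counts. It too was drawn up with earlier results of these data known. Between F+ and F-, 27 were higher (48.2% of all features) and 12 lower (median 0.045). At an unadjusted p under 0.05, 12 were higher (3.65% of all features) and 2 lower (3.76%), and none passed the adjusted threshold in limma. Between F- and Sham, 8 were higher (48.2%) and 31 lower, with 0 higher (3.07%) and 3 lower (2.96%) at such a p. Between F+ and Sham, 20 were higher (47.5%) and 19 lower, with 6 higher (3.5%) and 3 lower (3.9%) at such a p. Car4, the carbonic anhydrase of the capillary wall, had the smallest p of these genes and was lower in the F+ group. Its values were 63.9, 58.4 and 64.0 in Sham, 58.4, 62.5 and 64.7 in F- and 45.5, 45.2 and 47.9 in F+. The F+ arrays lay well apart from the rest. The log2 difference was -0.42 from F- (SE 0.052, unadjusted p = 4.9e-05, adjusted p = 0.288, limma) and -0.43 from Sham (unadjusted p = 4.5e-05, adjusted p = 0.564).

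Eng and Acvrl1, receptors of the circulating ligand BMP9 on endothelium, were higher in F+. Eng was at 109.5, 107.7 and 109.5 in Sham, 109.4, 105.9 and 103.9 in F- and 121.2, 119.2 and 118.3 in F+. F+ differed from F- by 0.17 (SE 0.027, unadjusted p = 0.00028, adjusted p = 0.402, limma) and from Sham by 0.13 (unadjusted p = 0.0011, adjusted p = 0.60). Acvrl1 was 0.15 above F- (unadjusted p = 0.0029), and Fli1, an ETS factor of endothelial and blood cells, was 0.11 above F- (unadjusted p = 0.0033), neither with overlap. Lower in F- than in Sham at the smallest p-values were Arhgap31 (-0.090), Nr2f2 (-0.15), a factor of venous and lymphatic identity, Procr (-0.14), the protein C receptor, and Acvrl1 (-0.080, unadjusted p = 0.054). Against Sham, Tfpi, an inhibitor of coagulation, was lower in F+ (-0.18), and Cdh13, a cadherin anchored in the membrane, was higher (0.18).

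Markers of several other cell types were read on the same arrays. The 12 macrophage markers were all higher in F+ than in F- (median 0.23, against 48.2% of all features higher). Of them 7 had an unadjusted p under 0.05, against 7.41% of all features. All were also higher in F+ than in Sham (median 0.26, 10 with such a p, against 47.5% and 7.4% of all features). Between F- and Sham 10 were higher (48.2% of all features), and 0 had such a p (6.03%). Their summed value was between 670.7 and 708.4 in Sham, 805.1, 656.3 and 664.8 in F-, and 806.9, 871 and 823.6 in F+. F- array 1 had nearly the macrophage sum of the lowest F+ array, while its Vcam1 of 36.4 was at the level of the other F- arrays (36.4 and 35.7). Its Sele (37.0) lay within the F+ range, and its Flt4 (42.2) and Lyve1 (74.7) lay between the other F- arrays and the F+ arrays. The part of these markers in the results was not tested.

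**Figure D5:**
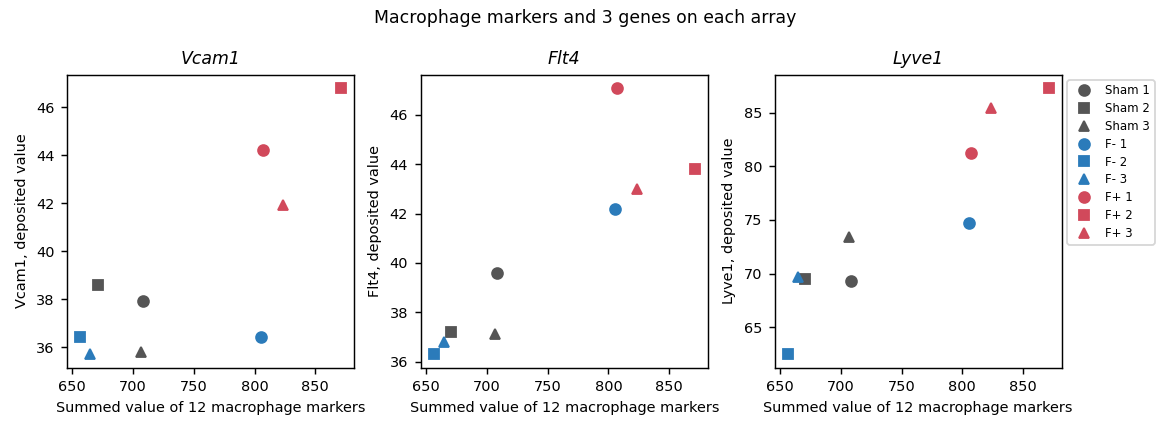
Deposited values of Vcam1, Flt4 and Lyve1 against the summed value of 12 macrophage markers on the same array, with 1 point per array and the groups in colour. F- array 1, at a sum of 805.1, lies beside the F+ arrays on the horizontal axis, with 36.4 for Vcam1 and 42.2 for Flt4.

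The 5 red cell markers, which include the globins, were higher in F+ than in F- in 5 of 5 (4 with an unadjusted p under 0.05), with summed values of 180.4 to 292.2 in F+, 129.6 to 143.9 in F- and 144.5 to 161.5 in Sham. Aqp1, which red cells also make, differed by -0.085 between F+ and F- (unadjusted p = 0.078, limma), with overlapping arrays. Smooth muscle and pericyte markers were higher in F+ in 11 of 12 (5 with such a p), with sums of 1004 to 1031.8 in F+, 971 to 983.8 in F- and 995.2 to 1020.5 in Sham. Fibroblast markers were higher in 7 of 10, with 0 such p, and cardiomyocyte markers were higher in 1 and lower in 9, with 1 such p, for a lower Myl2. Over all features, 48.2% were higher in F+ than in F- and 7.41% had such a p. No feature had a deposited value below 1 on any array, so a value above 0 does not tell that a cell type was present. The part of these cells in the endothelial values was not tested.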

How the data were processed

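Right ventricular RNA of Sham, F- and F+ rats was measured on 9 Affymetrix Rat Gene 1.0 ST arrays, 3 per group. The authors deposited 1 signal intensity per feature and array. Normalization, summarization and scale are not given in the sources used here. For the RNA, the methods name TRIzol and the sample records name Sepasol. Features numbered 29215, of which 15310 carried 1 gene symbol (323 several, 13582 not listed); 15279 matched RefSeq by gene ID.

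Log2 values were fitted with limma 3.58.1 (lmFit, eBayes) in R 4.3.3, with tables handled in the package data.table, version 1.17.8. A mean was fitted for each group over the 9 arrays, and p-values were adjusted over all features by Benjamini-Hochberg (threshold 0.05). The procedure was tested on simulated data. Plots used Python 3.11.15 and matplotlib 3.10.9. The number of arrays limits the precision.

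The 44 genes and 14 further lists were chosen with earlier results of these data known. Genes given in full were up to 8 per comparison with the smallest unadjusted p under 0.05, together with Pecam1, Cdh5, Prox1, Flt4, Icam1, Vcam1, Sele, Selp, Klf2 and Klf4, and up to 4 other endothelial genes. Further genes of the lists were named for an unadjusted p under 0.05 or a defining role, after their values were seen. Alternatives were quantile normalization, median centring, fewer features, a mean-variance trend, a block for replicate number, a fit to the groups compared alone, square roots, the mean of a gene's features, and arrays left out.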

Additional observations from a re-analysis of the deposited data

How the results depend on the processing

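None of the 39 genes passed the adjusted threshold of limma under any of the 19 alternatives. The smallest adjusted p was 0.115 between F+ and F- (without F- array 1), 0.505 between F- and Sham and 0.171 between F+ and Sham. Leaving out 1 array at a time, the count at an unadjusted p under 0.05 was 8 to 14, 1 to 7 and 9 to 13 in these comparisons. The median log2 difference was 0.044 to 0.059, -0.041 to -0.019 and -0.0014 to 0.038, and turned sign in the last without Sham array 2. In a fit to only the groups compared the counts were 9 between F+ and F- and 1 between F- and Sham. Without Sham array 2 and F- array 1 together, the median was -0.050 between F- and Sham and -0.0014 between F+ and Sham. On square roots of the values the medians were 0.14, -0.099 and 0.033. Between F- and Sham, leaving out 1 array gave -0.082 to 0.0094 for Cdh5, -0.038 to 0.024 for Prox1, -0.054 to 0.054 for Flt4, -0.080 to 0.010 for Selp and -0.12 to 0.050 for Klf4. Among the genes given in full in this comparison, Selp and Klf4 turned sign without Sham array 1 (0.010 and 0.050). Prox1 and Flt4 did so without Sham array 3 (0.015 and -0.0014). Cdh5, Prox1 and Flt4 did so without F- array 1 (0.0094, 0.024 and -0.054), and Selp without F- array 3 (0.0083). Without Sham array 2 and F- array 1 together, Prox1 and Flt4 turned sign (0.0081 and -0.069). Other genes of the 39 turned sign as well, among them Dll4 (0.053) and Efnb2 (0.038) without Sham array 1. Between F+ and F-, Cdh5 was 0.022 without F- array 2. The cause was not tested. Arrays of the same number shared only that number: the correlations of their deviations from the group means were between -0.21 and 0.053. With the replicate number as a block, 14, 4 and 11 genes had an unadjusted p under 0.05. Of the genes with such a p in the fit without the block, 12 of 15, 1 of 4 and 9 of 10 had it again. Plvap, Notch4 and Calcrl lost it between F- and Sham, Pecam1, Icam2 and Notch1 between F+ and F-, and Icam2 between F+ and Sham. No gene passed the adjusted threshold with the block. Outlying arrays were not tested in these groups of 3.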

Other observations

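Other cell types of the heart were read from short lists of markers. Between F+ and F-, endocardial markers were higher in 4 of 5, and Bmp6, a growth factor of the BMP family, had an unadjusted p under 0.05 (log2 difference 0.13). Mesothelial markers were higher in 3 of 4. Wt1, a factor of the epicardium that some endothelial cells of injured hearts also make, was at 51.7, 51.1 and 49.1 in Sham, 49.2, 48.7 and 48.4 in F- and 54.7, 53.7 and 54.7 in F+. All F+ arrays lay above the others (difference from F- 0.16, SE 0.027, unadjusted p = 0.00043, adjusted p = 0.438, limma). Lymphocyte markers were higher in 5 of 7, 2 of them at such a p (Cd3d and Cd4). Neutrophil markers were higher in 4 of 6, 1 at such a p (Fcgr3a). Platelet markers were higher in 4 of 4, 1 at such a p (Pf4, 0.15). Atrial markers were higher in 3 of 7 and lower in 4, 1 at such a p (Dkk3), with sums of 417.4 to 696.6 in Sham, 397.1 to 462.5 in F- and 454.4 to 491.3 in F+. No gene of these lists passed the adjusted threshold. Over all features, 48.2% were higher in F+ than in F- and 7.41% had an unadjusted p under 0.05.

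Were the deposited values squares of log2 intensities, the folds would be larger: 2.02 for Gpihbp1, 1.56 for Vcam1, 1.41 for Sele and 1.30 for Jag1 between F+ and F-, and 1.65 for Sele and 1.45 for Vcam1 between F+ and Sham. No source used here gives the scale.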
